A study of Homo sapiens with 4 samples.

Results

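The genes described here encode actin, myosin and microtubule proteins, together with their motors, crosslinkers, modifying enzymes and centrosomal partners. They were taken from the tables of SCC1 and FaDu cells by gene name: a name had to hold the whole word actin, myosin, kinesin, dynein, tubulin, tropomyosin, filamin or microtubule, or the phrase centrosomal protein. Names with kinase, phosphatase or ubiquitin were left out. This gave 64 genes of the 2770 listed in either table, 44 of 1903 in SCC1 and 35 of 1545 in FaDu, with 15 in both. RNA-seq libraries came from SCC1 cells with FOSL1 siRNA, SCC1 cells with control siRNA, FaDu cells with FOSL1 siRNA and FaDu cells with control siRNA, 1 library each. Both are head and neck squamous cell carcinoma lines, grown in DMEM with serum and collected 48 h after siRNA, and FaDu is from the hypopharynx. The protein of FOSL1, FRA1, pairs with JUN proteins to form AP-1, a transcription factor. Which siRNA sequences were used is not stated in the labels. Neither line has replicates, the conditions were not tested against each other, and each table lists only genes that passed its authors' own filter. When p-values were recomputed with a likelihood ratio test (edgeR), every listed row had an unadjusted p under 0.05. The spread between cultures was assumed there and not measured. Most listed genes had a deposited FDR of 0.05 or more, so being listed is not by itself a call of change.

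Actin filaments carry cell shape, adhesion and crawling. Nucleators and severing proteins build and recycle them, crosslinkers such as fascin and filamin set their architecture, and non-muscle myosin II pulls on them. Microtubules are polymers of tubulin along which kinesins and dyneins carry cargo, and the centrosome organises them into the spindle and, as the basal body, into the cilium. In squamous carcinoma cells this machinery is best known for invasion and cell division.

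Levels are CPM, reads scaled to a common library size, and were not divided by gene length, so they are compared within a gene and not between genes. The effective sizes lay between 10365774 and 13242163 reads. A fold is the ratio of CPM, and values in parentheses after it are its 95% exact binomial (Clopper-Pearson) interval. The interval covers counting error only, takes each read as an independent molecule and says nothing of variation between cultures. In such bulk libraries a smaller share of cells carrying a transcript and less RNA per cell cannot be told apart. FOSL1 itself was at 3.99 CPM with FOSL1 siRNA and 133 CPM with control siRNA in SCC1, and at 36.9 and 774 CPM in FaDu. Of 8 markers of squamous epithelium, the tables list CDH1 in SCC1 and KRT17 in FaDu, both higher with FOSL1 siRNA, and 7 in each line were not listed, so these filtered tables cannot check the labelled cell type. No marker of leukocytes, endothelium or striated muscle was listed in either line. Of 6 fibroblast markers, COL3A1 alone was listed, in FaDu, at 2.22 CPM with FOSL1 siRNA and 7.84 CPM with control siRNA. Of 6 smooth muscle markers, SMTN was listed in SCC1 at 37.0 against 76.7 CPM, and ACTG2 in FaDu. The ciliated cell list of 6 had DNAH5 in both lines. The part of other cells in the results below was not tested.

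Most of the listed cytoskeletal genes were lower with FOSL1 siRNA. In SCC1, 36 of 44 were lower and 8 higher. In FaDu, 25 of 35 were lower and 10 higher. Among all genes that the authors tested, 8.19% were listed as lower and 5.6% as higher in SCC1, and 6.44% and 4.76% in FaDu. How many genes with such names were tested and not listed is not known from the tables, so the share of them that was listed cannot be given. What can be set side by side is the split among listed rows: 81.8% of the cytoskeletal genes and 59.4% of all listed rows were lower in SCC1, and 71.4% and 57.5% in FaDu. The median log2 ratio was -1.17 for the cytoskeletal genes and -1.05 for all listed rows in SCC1, and -1.20 and -1.01 in FaDu. Their typical difference was thus close to that of any listed row, and in SCC1 the median lower gene was 2.37-fold lower, against 2.60-fold for all lower rows, and in FaDu 2.79-fold lower, against 2.63-fold. In SCC1 the binomial interval lay wholly past 1.5-fold for 41 of 44, and in FaDu for 30 of 35. Over all listed rows, which had passed the same filter, this held for 1682 of 1903 in SCC1 and 1328 of 1545 in FaDu.

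**Figure D1:**
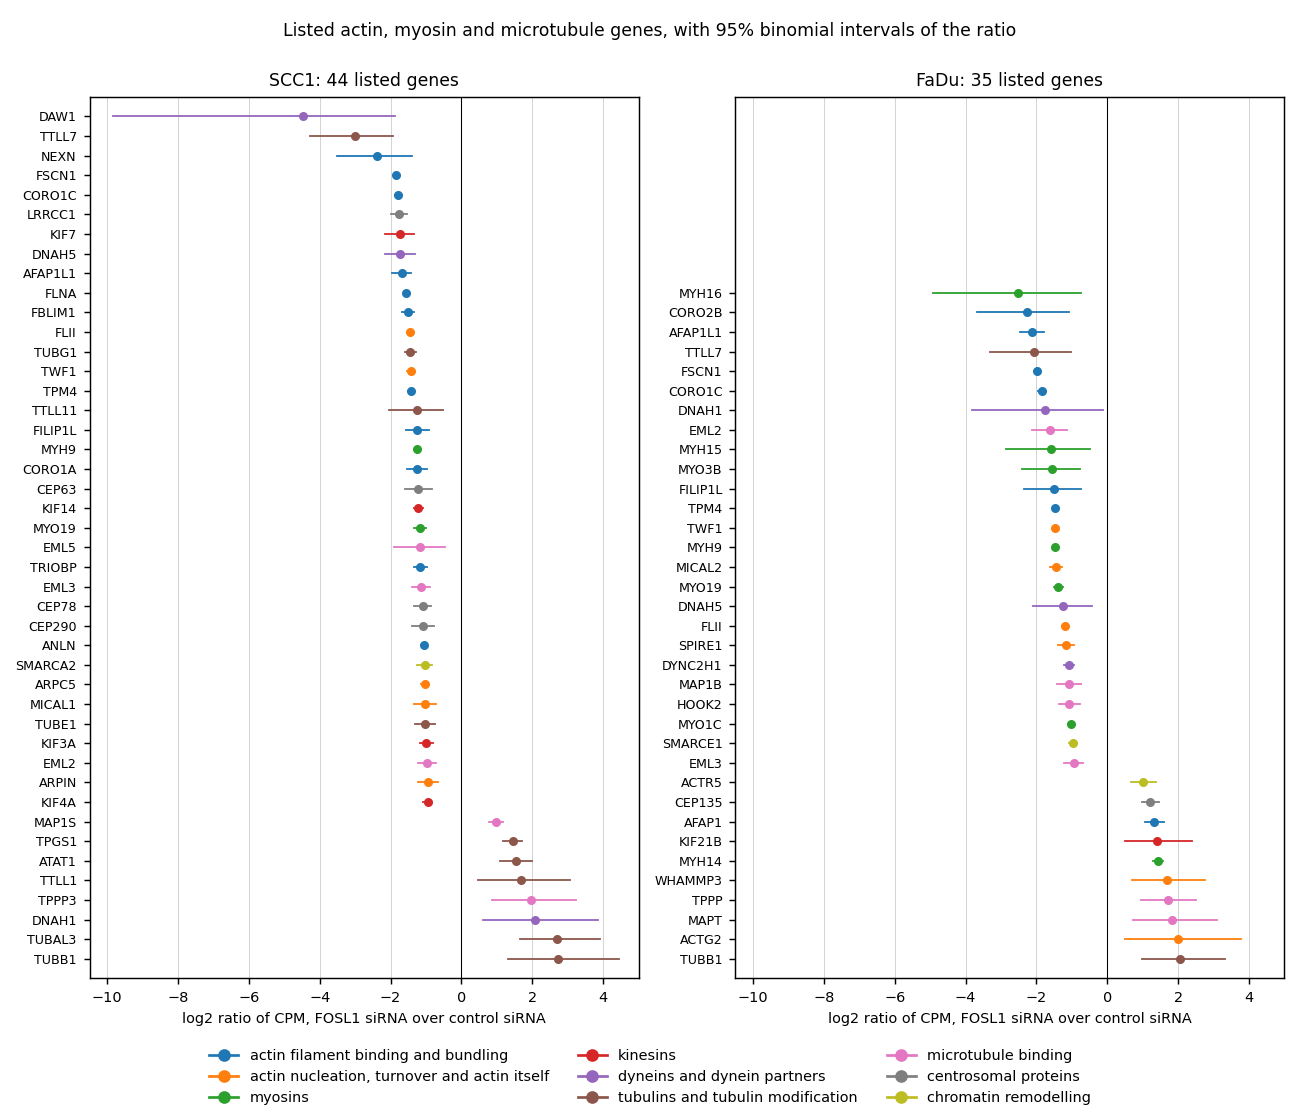
The log2 ratio of CPM, FOSL1 siRNA over control siRNA, is plotted for each of the 44 cytoskeletal genes listed in SCC1 and the 35 listed in FaDu, with its 95% binomial interval as a line and its role as the colour. Most points lie left of 0, no gene lies near 0 because the tables were filtered, and the long lines belong to genes with few reads, such as DAW1.

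Depth was uneven between the higher and the lower genes. In SCC1, 5 of the 8 higher genes and 4 of the 36 lower ones stayed under 5 CPM in both libraries. In FaDu this held for 5 of 10 higher and 6 of 25 lower genes. Over all listed rows the shares under 5 CPM were 22.8% of higher and 22.1% of lower rows in SCC1, and 31.6% and 23.1% in FaDu. At 5 CPM or more, 3 genes remained higher in SCC1 (MAP1S, TPGS1 and ATAT1) and 5 in FaDu (ACTR5, CEP135, AFAP1, MYH14 and TPPP). The authors' deposited table gave an FDR under 0.05 to 12 lower and 2 higher cytoskeletal genes in SCC1, and to 3 lower and 0 higher in FaDu. These are 31.8% of the listed cytoskeletal genes in SCC1, beside 27.4% of all listed rows, and 8.57% in FaDu, beside 25.4%. Of all tested genes, 3.78% in SCC1 and 2.85% in FaDu had such an FDR. Such an FDR speaks of the libraries at hand and not of the conditions, since no group was repeated.

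**Figure D2:**
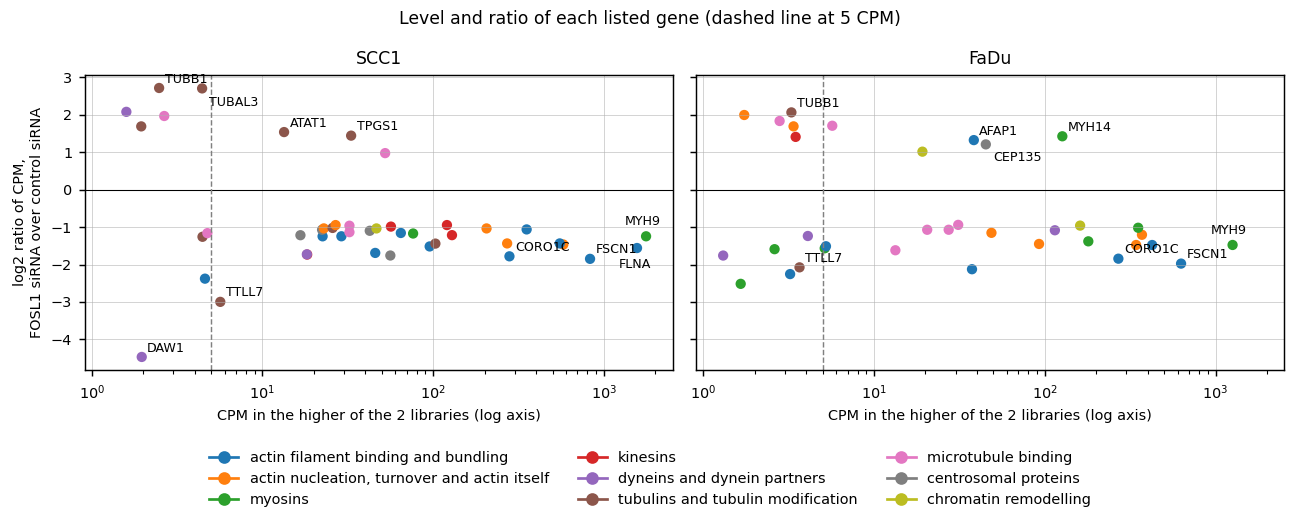
The log2 ratio of CPM, FOSL1 siRNA over control siRNA, of each listed cytoskeletal gene is plotted against its CPM in the higher of the 2 libraries on a log axis, for SCC1 and FaDu, with roles in colour and a dashed line at 5 CPM. In SCC1, 5 of the 8 higher genes lie left of that line, and MYH9, FLNA and FSCN1 lie at the right among the lower genes.

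Actin crosslinking and filament-binding genes made the largest role group in SCC1, where 11 were listed and all 11 were lower, at 2.09-fold to 5.20-fold. Of all listed rows in SCC1, 59.4% were lower. FSCN1 encodes fascin, which packs actin filaments into the tight bundles of filopodia and invasive protrusions. It had 230 CPM in SCC1 with FOSL1 siRNA and 829 CPM with control siRNA, and 160 CPM in FaDu with FOSL1 siRNA and 628 CPM with control siRNA. It was thus 3.60-fold lower (3.45 to 3.76) in SCC1 and 3.93-fold lower (3.73 to 4.15) in FaDu, on 1656 reads or more in every library. In the authors' deposited table FSCN1, CORO1C and AFAP1L1 had an FDR under 0.05 in both lines. MYH9, TPM4 and TWF1, whose counting intervals below are narrow too, did not in either line.

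CORO1C, a coronin that binds the sides of actin filaments and works at the leading edge, lay close behind. It had 81.4 CPM with FOSL1 siRNA and 280 CPM with control siRNA in SCC1, 3.44-fold lower (3.20 to 3.70). In FaDu it had 75.2 CPM with FOSL1 siRNA and 270 CPM with control siRNA, 3.59-fold lower (3.32 to 3.89). Other coronins were lower in 1 line each. CORO1A was 2.37-fold lower in SCC1 (1.95 to 2.90), on 138 against 384 reads, and CORO2B at 0.675 against 3.22 CPM in FaDu, on 7 and 37 reads. CORO6, whose name in the table lacks the word actin and which is therefore outside the 64, was also lower in FaDu, at 3.76 against 11.8 CPM. Of the 7 coronin genes in the annotation, 2 were listed in SCC1 and 3 in FaDu, each of them lower. Over all tested genes, 13.8% were listed in SCC1 and 11.2% in FaDu. The family counts here and below are out of annotated genes, and how many of these were tested is not known.

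AFAP1L1 and AFAP1 are related adaptors that bind actin filaments, and in FaDu they went opposite ways. AFAP1L1 had 8.59 CPM with FOSL1 siRNA and 37.5 CPM with control siRNA in FaDu, 4.36-fold lower (3.47 to 5.55). AFAP1 had 38.4 CPM with FOSL1 siRNA and 15.3 CPM with control siRNA there, 2.50-fold higher (2.09 to 3.01). In SCC1, AFAP1L1 was again lower, at 14.2 against 45.8 CPM, 3.23-fold (2.71 to 3.86), and AFAP1 was not listed.

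The filamin genes were listed in SCC1 only for FLNA, which encodes the large crosslinker that ties actin networks to integrins and the membrane. FLNA had 530 CPM with FOSL1 siRNA and 1562 CPM with control siRNA, 2.95-fold lower (2.86 to 3.03). FBLIM1, or migfilin, a filamin-binding protein of cell-matrix adhesions, was 2.86-fold lower in SCC1 (2.55 to 3.22), at 33.3 against 95.4 CPM. FILIP1L, named for its likeness to a filamin A-interacting protein, was lower in both lines, at 9.49 against 22.5 CPM in SCC1 and 1.83 against 5.23 CPM in FaDu. FLNA and FBLIM1 were not listed in FaDu, and whether the lines differ in them cannot be tested from filtered tables.

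TPM4 was the single tropomyosin listed, of 4 in the annotation. Tropomyosins run along actin filaments and govern which myosins and severing factors can reach them. TPM4 had 204 CPM with FOSL1 siRNA and 551 CPM with control siRNA in SCC1, 2.71-fold lower (2.58 to 2.84). In FaDu it had 153 and 425 CPM, 2.79-fold lower (2.63 to 2.95). Its folds in the lines nearly coincide. In GENCODE v29, 19.3% of the exonic bases of TPM4 lie opposite an antisense transcript, and the strand setting of the counting is not stated. SPIRE1, TPGS1 and TRIOBP also share 29.5%, 30.3% and 36.5% of theirs with another gene, and FSCN1, KIF3A, SMARCE1 and TPM4 have annotated pseudogenes, so these values are uncertain too.

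The remaining filament-binding genes were listed in SCC1 alone. NEXN, nexilin, was at 0.886 against 4.61 CPM, 5.20-fold lower (2.64 to 11.4). TRIOBP, a bundling protein, was 2.23-fold lower, on 327 against 856 reads, and ANLN, the anillin scaffold of the cytokinetic ring, at 169 against 353 CPM, 2.09-fold lower (1.98 to 2.20). Setting the median log2 ratio of all listed rows to 0 left 4 of the 11 SCC1 genes and 4 of the 6 lower FaDu genes lower by 1.5-fold. This scaling moves every gene of a line by the same amount, so a lower gene turns sign wherever its own log2 ratio is nearer 0 than -1.05 in SCC1 or -1.01 in FaDu. It restates the size of a fold relative to the other listed rows and is no check on a group.

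Genes of actin turnover and nucleation were lower in SCC1 for 5 of 5, and in FaDu for 4 of 6. Of all listed rows, 59.4% were lower in SCC1 and 57.5% in FaDu. ARPC5, ARPIN and MICAL1 in SCC1 had log2 ratios nearer 0 than the median of listed rows and so turn sign under that scaling. TWF1 encodes twinfilin, which binds actin monomers and caps filament ends. It was at 100.2 CPM with FOSL1 siRNA and 271 CPM with control siRNA in SCC1, and at 123 and 343 CPM in FaDu, 2.71-fold (2.53 to 2.90) and 2.79-fold lower (2.61 to 2.97). TWF1 has an annotated pseudogene copy, so its reads may be shared. FLII, a gelsolin-family protein, was at 210 CPM with FOSL1 siRNA and 578 CPM with control siRNA in SCC1, 2.76-fold lower (2.63 to 2.89), and at 161 and 371 CPM in FaDu, 2.31-fold lower (2.18 to 2.44).

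Both listed MICAL genes encode enzymes that oxidise actin and so dismantle filaments. MICAL1 was at 11.2 against 22.9 CPM in SCC1 and MICAL2 at 33.9 against 92.5 CPM in FaDu, 2.73-fold lower (2.42 to 3.09). Of the 10 genes for subunits of the Arp2/3 complex, which nucleates branched networks, ARPC5 was listed in SCC1, at 100.2 against 205 CPM, and 0 in FaDu. ARPIN, an inhibitor of that complex, was at 13.9 against 26.8 CPM in SCC1. SPIRE1, a nucleator of straight filaments, was at 21.9 against 48.7 CPM in FaDu.

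Of the 6 actin genes themselves, 0 were listed in SCC1, and in FaDu ACTG2 was the one listed. ACTG2, the enteric smooth muscle actin, was at 1.74 CPM with FOSL1 siRNA and 0.436 CPM with control siRNA, 18 and 5 reads. Actin genes are nearly identical in their coding sequence, so this value is uncertain. WHAMMP3, a pseudogene of the nucleation promoter WHAMM, was 3.23-fold higher in FaDu (1.64 to 6.83) on 35 and 12 reads, and is uncertain for the same reason.

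Among the myosins, MYH9 carried the most reads of any gene in the set. MYH9 encodes the heavy chain of non-muscle myosin IIA, the main contractile motor of epithelial cells. It had 744 CPM with FOSL1 siRNA and 1765 CPM with control siRNA in SCC1, 2.37-fold lower (2.31 to 2.43). In FaDu it had 452 CPM with FOSL1 siRNA and 1258 CPM with control siRNA, 2.78-fold lower (2.69 to 2.88). MYH14, the heavy chain of non-muscle myosin IIC, went the other way in FaDu, with 127 CPM against 47.1 CPM, 2.69-fold higher (2.43 to 2.98). MYH14 was not listed in SCC1.

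Unconventional myosins were lower wherever they were listed. MYO19, which moves mitochondria along actin, was at 33.9 against 76.3 CPM in SCC1 and at 69.1 against 180 CPM in FaDu, 2.25-fold (2.0 to 2.54) and 2.60-fold lower (2.39 to 2.84). MYO1C, a membrane-bound motor of class I, was at 174 against 352 CPM in FaDu, and MYO3B at 1.74 against 5.14 CPM. MYH15 and the pseudogene MYH16 were lower in FaDu on few reads, 9 against 30 and 3 against 19. Of 14 myosin heavy chain genes 1 was listed in SCC1 and 3 in FaDu, of 25 unconventional myosins 1 and 3, and of 12 myosin light chains 0 and 0. In all, both SCC1 myosins and 6 of 7 FaDu myosins were lower, beside 59.4% and 57.5% of all listed rows.

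**Figure D3:**
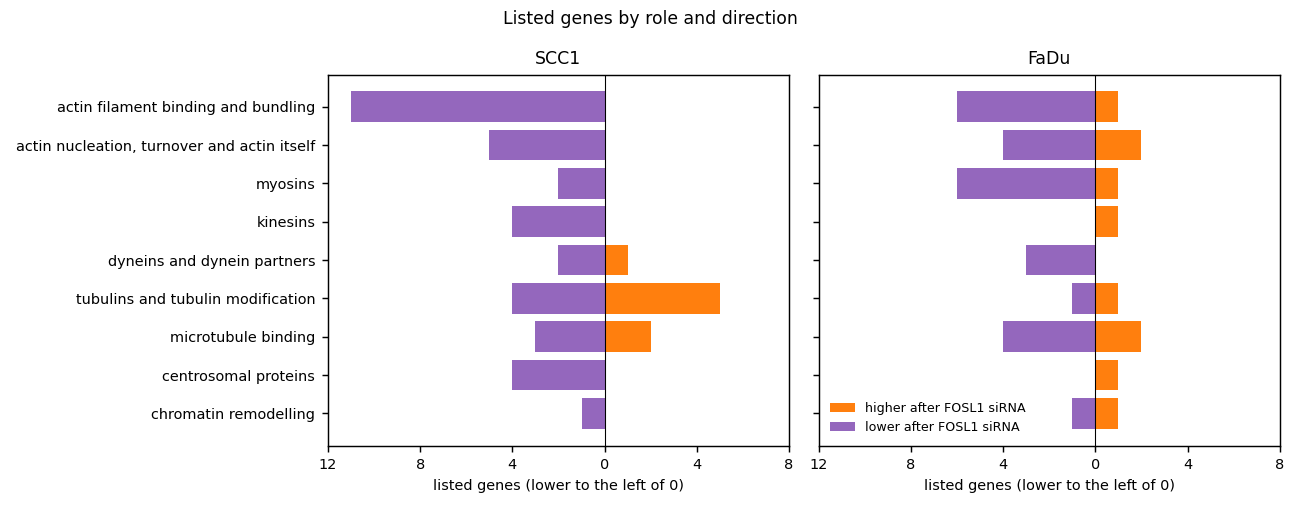
The number of listed cytoskeletal genes is plotted by role for SCC1 and FaDu, with genes lower with FOSL1 siRNA drawn to the left of 0 and higher ones to the right. In SCC1 the bars for actin filament binding, actin turnover, myosins, kinesins and centrosomal proteins hold only lower genes, and tubulins and their modifying enzymes have 5 higher and 4 lower. Of all listed rows in SCC1, 59.4% were lower.

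No kinesin was listed in both tables, so whether the lines differ in kinesins cannot be tested from them. Over all tested genes, 13.8% were listed in SCC1 and 11.2% in FaDu. In SCC1, 4 of the 42 KIF genes were listed and all 4 were lower, beside 59.4% of all listed rows. KIF7, a ciliary regulator of Hedgehog signalling, was at 5.50 against 18.3 CPM, 3.33-fold lower (2.51 to 4.47). KIF14, a motor of cytokinesis, was at 55.5 against 129 CPM, KIF4A, a spindle midzone motor, at 62.5 against 120.4 CPM, and KIF3A, a motor subunit for transport into cilia, at 28.5 against 56.6 CPM. The last pair turned sign when the median of listed rows was set to 0. In FaDu the listed kinesin was KIF21B, higher at 3.47 against 1.31 CPM, on 36 and 15 reads.

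Dynein genes were mostly those of cilia. DNAH5, a heavy chain of the outer dynein arms that drive beating cilia, was at 5.50 CPM with FOSL1 siRNA and 18.2 CPM with control siRNA in SCC1, 3.31-fold lower (2.50 to 4.45). In FaDu it was at 1.74 and 4.09 CPM, 2.36-fold lower (1.34 to 4.31). DYNC2H1, the heavy chain of the dynein for return transport in cilia, was at 54.0 against 115 CPM in FaDu, 2.12-fold lower (1.92 to 2.35). DAW1, an assembly factor for ciliary dyneins, had 1 read with FOSL1 siRNA and 26 reads with control siRNA in SCC1, a ratio of 22.1 (3.64 to 908). DNAH1, an inner arm heavy chain, was opposite between the lines. It had 18 reads with FOSL1 siRNA and 5 with control siRNA in SCC1, against 4 and 15 reads in FaDu. No cytoplasmic dynein subunit was listed in SCC1, of 13 in the annotation.

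Tubulins and the enzymes that modify them held most of the higher genes of SCC1. ATAT1, which acetylates alpha-tubulin inside the microtubule, was at 13.4 CPM with FOSL1 siRNA and 4.61 CPM with control siRNA, 2.91-fold higher (2.14 to 3.98). TPGS1, a subunit of the tubulin polyglutamylase complex, was at 33.1 against 12.2 CPM, 2.72-fold higher (2.25 to 3.29), and TTLL1, the catalytic subunit of that complex, at 1.95 against 0.604 CPM, 3.23-fold higher (1.38 to 8.39). TTLL7, a glutamylase acting mainly on beta-tubulin, was lower instead, at 0.709 against 5.66 CPM in SCC1, 7.99-fold (3.85 to 19.2), and at 0.868 against 3.66 CPM in FaDu, 4.21-fold (2.02 to 9.85). TTLL11, another glutamylase, was at 1.86 against 4.46 CPM in SCC1.

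The listed tubulins were specialised ones. TUBG1, the gamma-tubulin that nucleates microtubules at the centrosome, was at 37.9 against 103 CPM in SCC1, 2.71-fold lower (2.43 to 3.03). It has a close copy, TUBG2, and its value is uncertain for that reason. TUBE1, the epsilon-tubulin of centrioles, was at 12.7 against 25.8 CPM there and turned sign under scaling to the median of listed rows. TUBAL3, an alpha-tubulin-like gene, was at 4.43 against 0.680 CPM in SCC1, 6.52-fold higher (3.18 to 15.1). TUBB1, the beta-tubulin of platelets, was higher in both lines, at 2.48 against 0.378 CPM in SCC1 and 3.28 against 0.784 CPM in FaDu, on 34 reads or fewer in each library. In GENCODE v29, 34.0% of the exonic bases of TUBB1 lie opposite exons of ATP5F1E, so without strand its reads cannot be told from that gene's. Of 24 tubulin genes, 20 in SCC1 and 23 in FaDu were not listed.

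Microtubule-binding genes fell on both sides. The EML genes, which encode proteins that coat microtubules, were lower in each case: EML2, EML3 and EML5 in SCC1 and EML2 and EML3 in FaDu. EML2 was at 16.6 against 32.3 CPM in SCC1 and 4.34 against 13.3 CPM in FaDu, and EML3 at 14.7 against 32.3 CPM and 16.2 against 31.1 CPM. Scaling to the median of listed rows turned the sign of EML2 in SCC1 and of EML3 in FaDu. EML5 shares 50.1% of its exonic bases with the opposite-strand gene ZC3H14 in GENCODE v29. In FaDu, MAP1B, at 9.74 against 20.5 CPM, and HOOK2, a linker of cargo to microtubules, at 13.0 against 27.4 CPM, were also lower.

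On the other side, TPPP and TPPP3, which encode tubulin polymerisation-promoting proteins, were higher in a line each. TPPP was at 5.69 against 1.74 CPM in FaDu, 3.27-fold higher (1.94 to 5.73), and TPPP3 at 2.66 against 0.680 CPM in SCC1, 3.91-fold higher (1.81 to 9.37). MAP1S was at 52.3 against 26.6 CPM in SCC1, 1.97-fold higher (1.72 to 2.25). MAPT, the neuronal microtubule-associated protein tau, was at 2.80 against 0.784 CPM in FaDu, on 29 and 9 reads.

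Centrosomal protein genes were lower for 4 of 4 in SCC1, where 59.4% of all listed rows were lower. LRRCC1, a centriole protein, was at 16.6 CPM with FOSL1 siRNA and 56.1 CPM with control siRNA, 3.38-fold lower (2.88 to 4.0). CEP78 was at 19.9 against 42.5 CPM, CEP63, which takes part in centriole duplication, at 7.18 against 16.7 CPM, and CEP290, a gatekeeper of the base of the cilium, at 10.6 against 22.4 CPM. In FaDu, CEP135, a protein of the centriole's inner scaffold, was higher, at 45.1 against 19.5 CPM, 2.31-fold (1.97 to 2.72). Of the 33 genes of the CEP series, 30 in SCC1 and 32 in FaDu were not listed.

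Among the 64 genes, 3 were assigned to chromatin remodelling. SMARCA2 and SMARCE1 are named as actin dependent regulators of chromatin, and ACTR5 as an actin-related protein. SMARCA2 was at 22.7 against 46.5 CPM in SCC1, SMARCE1 at 82.8 against 161 CPM in FaDu, and ACTR5 at 19.2 against 9.50 CPM in FaDu. SMARCA2 and SMARCE1 turned sign under scaling to the median of listed rows.

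Across the lines, 15 of these genes were in both tables, which is 34.1% of those in SCC1 and 42.9% of those in FaDu. Over all listed rows the overlap was 35.6% and 43.9%, close to the shares for the cytoskeletal genes. Of the 15, 13 were lower in both lines, 1 was higher in both (TUBB1) and 1 was opposite (DNAH1). The 13 were MYH9, FSCN1, FLII, TPM4, CORO1C, TWF1, MYO19, AFAP1L1, EML2, EML3, FILIP1L, DNAH5 and TTLL7. The same direction was seen for 93.3% of the shared cytoskeletal genes and 96.6% of all shared rows. The lines have separate controls.

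**Figure D4:**
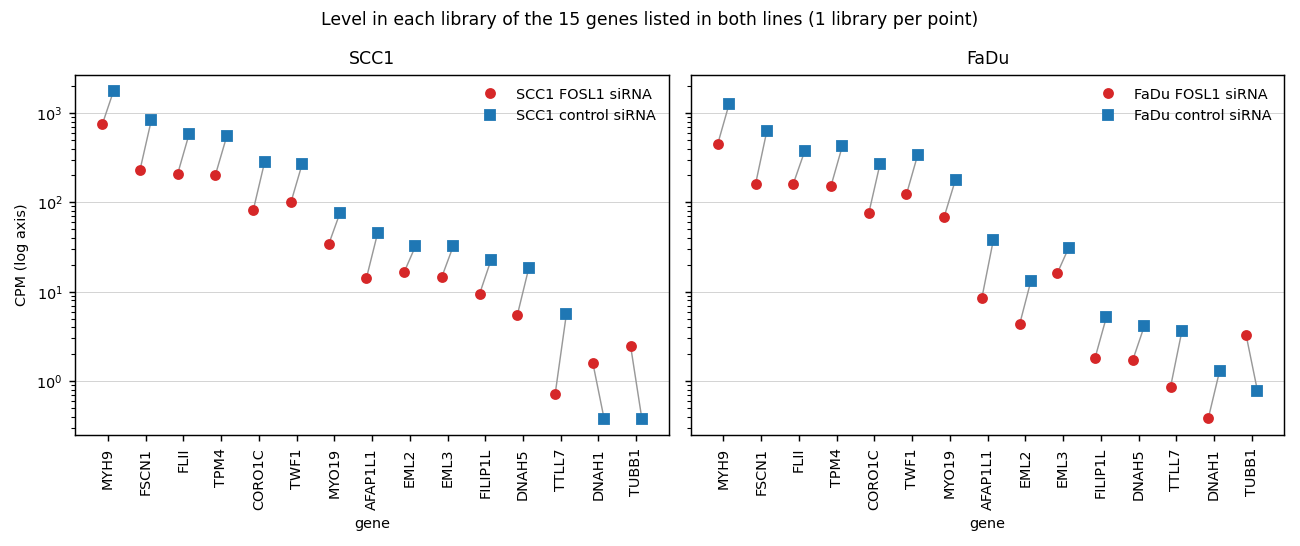
CPM on a log axis is plotted for the 15 cytoskeletal genes listed in both lines, with 1 point per library, FOSL1 siRNA left of control siRNA within each gene. For 13 genes the FOSL1 siRNA point lies below the control point in both lines, while TUBB1 lies above it in both and DNAH1 above it in SCC1 and below it in FaDu.

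The sizes of the shared folds can be set against counting error. Of the 15 genes, 12 had at least 10 reads in every library. For 7 of them the interval of the difference of log2 ratios, SCC1 minus FaDu, held 0, among them CORO1C, with a difference of 0.06 (-0.09 to 0.22), TPM4, with 0.04 (-0.06 to 0.15), and MYO19. For the other 5 it did not. MYH9 had a difference of 0.23 (0.17 to 0.29), FSCN1 0.13 (0.03 to 0.23), AFAP1L1 0.44 (0.02 to 0.85) and EML2 0.66 (0.12 to 1.20), each lower by more in FaDu. FLII had -0.26 (-0.36 to -0.15) and was lower by more in SCC1. These intervals use the normal approximation on the log scale at 95% confidence and cover counting error only, so they do not show that the lines differ.

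Summed over the listed cytoskeletal genes, SCC1 had 2960 CPM with FOSL1 siRNA and 7565 CPM with control siRNA, and FaDu had 1869 and 4498 CPM. The sums follow the few genes with many reads, MYH9, FLNA and FSCN1 in SCC1 and MYH9, FSCN1 and TPM4 in FaDu, and unlisted genes such as ACTB are not in them. Every summed gene was listed for a difference, so the sums restate that filter and do not give total cytoskeletal RNA.

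Upstream regions were read for the genes, most of them lower together, to show which binding motifs stand near their starts. RefSeq's promoter table (GRCh38.p14) held 54 of the 64 genes. The missing ones were CEP78, DAW1, EML5, FSCN1, KIF21B, LRRCC1, MAPT, MYH16, TPPP3 and WHAMMP3. In the 250 bases before any annotated start, the AP-1 motif TGANTCA, which reads the same on both strands, was found for 3 of 54 genes, 5.56%, and for 8.06% of all genes in the table. The cyclic AMP response motif TGACGTCA, also its own reverse complement, was found for 1, AFAP1, against 2.03% of all genes. The TEAD motif GGAATG, searched on both strands, was found for 11 of 54, 20.4%, and for 14.3% of all genes. The CArG box, the site that serum response factor binds, was found for 5 of 54, 9.26%, and for 1.44% of all genes. These motifs do not overlap in the sequences below. A match is a description of the letters and not a binding site, and the search was made after the values were known. The 54 genes have 86 starts, and a match before any of them counted. Unlisted cytoskeletal genes were not searched as a group, so these shares cannot separate the name rule from the listing.

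The CArG boxes stand before FLNA, FBLIM1, TPM4, FILIP1L and ACTG2, of which the first 4 were lower with FOSL1 siRNA and ACTG2 was higher in FaDu. They lie 94 bases before the start of FLNA, 96 before FBLIM1, 173 before TPM4 and 60 before FILIP1L, counted from the first base of the box. The 250 bases before each start are shown 5′ to 3′ on the gene's strand with the box in capitals. FLNA is at chrX:154374635-154374884 on the minus strand, FBLIM1 at chr1:15758545-15758794 on the plus strand, TPM4 at chr19:16067288-16067537 on the plus strand, FILIP1L at chr3:99876174-99876423 on the minus strand and ACTG2, which has 2 boxes, at chr2:73892758-73893007 on the plus strand.
FLNA: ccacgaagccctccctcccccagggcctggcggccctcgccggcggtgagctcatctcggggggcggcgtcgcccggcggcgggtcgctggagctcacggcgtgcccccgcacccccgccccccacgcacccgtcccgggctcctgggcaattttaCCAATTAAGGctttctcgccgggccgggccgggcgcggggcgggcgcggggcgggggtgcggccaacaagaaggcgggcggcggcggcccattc
FBLIM1: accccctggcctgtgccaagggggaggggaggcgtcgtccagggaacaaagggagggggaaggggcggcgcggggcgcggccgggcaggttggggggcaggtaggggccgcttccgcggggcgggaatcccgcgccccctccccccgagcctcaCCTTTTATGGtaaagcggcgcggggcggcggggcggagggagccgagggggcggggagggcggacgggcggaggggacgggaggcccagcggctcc
TPM4: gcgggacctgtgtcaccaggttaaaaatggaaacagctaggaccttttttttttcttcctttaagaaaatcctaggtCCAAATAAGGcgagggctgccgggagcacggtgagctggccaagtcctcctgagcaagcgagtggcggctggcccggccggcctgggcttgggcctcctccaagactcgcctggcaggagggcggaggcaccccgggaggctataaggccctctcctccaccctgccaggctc
FILIP1L: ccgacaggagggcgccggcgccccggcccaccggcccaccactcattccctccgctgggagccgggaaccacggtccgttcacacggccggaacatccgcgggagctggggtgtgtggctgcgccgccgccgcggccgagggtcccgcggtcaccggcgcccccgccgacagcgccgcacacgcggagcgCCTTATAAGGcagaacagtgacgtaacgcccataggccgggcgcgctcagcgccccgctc
ACTG2: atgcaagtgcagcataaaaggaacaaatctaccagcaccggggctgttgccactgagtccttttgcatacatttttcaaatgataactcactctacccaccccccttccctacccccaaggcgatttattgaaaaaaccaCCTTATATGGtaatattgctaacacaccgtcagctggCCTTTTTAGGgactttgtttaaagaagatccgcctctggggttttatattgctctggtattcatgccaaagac

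The AP-1 motif stands before DNAH5, lower in both lines, MYO1C, lower in FaDu, and TRIOBP, lower in SCC1. It begins 151, 210 and 37 bases before those starts. The regions are chr5:13944689-13944938 on the minus strand, chr17:1485761-1486010 on the minus strand and chr22:37696798-37697047 on the plus strand, with the motif in capitals.
DNAH5: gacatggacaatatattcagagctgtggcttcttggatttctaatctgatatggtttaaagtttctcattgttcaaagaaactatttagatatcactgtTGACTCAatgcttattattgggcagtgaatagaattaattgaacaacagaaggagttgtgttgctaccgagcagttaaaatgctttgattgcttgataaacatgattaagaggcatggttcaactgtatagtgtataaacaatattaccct
MYO1C: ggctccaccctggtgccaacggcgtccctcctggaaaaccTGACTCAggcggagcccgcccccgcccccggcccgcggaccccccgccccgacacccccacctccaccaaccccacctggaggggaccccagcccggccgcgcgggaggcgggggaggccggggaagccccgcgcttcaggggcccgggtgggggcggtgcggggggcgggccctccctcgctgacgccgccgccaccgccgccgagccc
TRIOBP: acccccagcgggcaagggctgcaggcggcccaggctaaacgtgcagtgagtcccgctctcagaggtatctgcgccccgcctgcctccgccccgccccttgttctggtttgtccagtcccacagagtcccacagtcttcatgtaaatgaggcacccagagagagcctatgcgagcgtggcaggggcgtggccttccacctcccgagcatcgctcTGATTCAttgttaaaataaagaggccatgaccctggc

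Partner genes whose names lack the chosen words give the setting. Of 18 genes of the SRF and MRTF list, which holds serum response factor, its cofactors and their targets, 4 were lower and 0 higher in SCC1, and 5 lower and 0 higher in FaDu. The shares at which all tested genes were listed would give 2.48 and 2.02. SRF itself was at 31.5 against 75.4 CPM in SCC1, 2.39-fold lower (2.12 to 2.71), and at 46.4 against 95.3 CPM in FaDu, 2.05-fold lower (1.84 to 2.29). The list's median log2 ratio over listed genes was -1.57 in SCC1 and -1.20 in FaDu, beside -1.05 and -1.01 for all listed rows. After scaling to the median of listed rows, 2 and 1 of these genes remained lower by 1.5-fold. CYR61, CTGF and EGR1, which led the list in SCC1, are targets of other pathways too.

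Of 45 genes of actin nucleation and turnover, 9 were lower and 2 higher in SCC1, and 8 lower and 1 higher in FaDu, 4 of them in each line being described above. At the share of all tested genes, 6.21 and 5.04 would be listed. CAP2, an actin monomer recycling protein, was at 6.47 against 24.5 CPM in SCC1 and 9.16 against 29.8 CPM in FaDu, 3.79-fold (2.93 to 4.96) and 3.25-fold lower (2.58 to 4.13). FHOD3, a formin, was at 2.51 against 13.9 CPM in FaDu, and the bundling protein gene LCP1 was lower in both lines. CFL2, the muscle form of the severing protein cofilin, was higher in both lines, in SCC1 at 186 against 60.4 CPM, 3.07-fold (2.83 to 3.34), and in FaDu, at 65.9 against 28.9 CPM, 2.28-fold (2.0 to 2.60).

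Of 29 focal adhesion and stress fibre genes, 3 were lower and 0 higher in each line, beside 4.0 and 3.25 at the share of all tested genes. PDLIM5, an actin-anchoring scaffold, was among them in both lines, at 47.9 against 106 CPM in SCC1 and 22.1 against 43.3 CPM in FaDu. After scaling, 0 of these genes remained lower by 1.5-fold in either line.

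Of 39 spindle and centrosome genes, 5 were lower and 0 higher in SCC1, and 1 lower and 0 higher in FaDu, beside 5.38 and 4.37 at the share of all tested genes. Of the 5 in SCC1, 1 is ANLN, described above. KNTC1, a kinetochore protein that recruits dynein, was listed in both lines, at 29.3 against 87.0 CPM in SCC1 and 49.1 against 105 CPM in FaDu. Of 22 septin and intermediate filament genes, VIM was lower in SCC1, at 7.09 against 30.1 CPM, while in FaDu DST was lower and KRT17 higher. These are 1 and 2 listed genes, beside 3.03 and 2.46 at the share of all tested genes. The genes that the name rule left out were MARK1, which phosphorylates microtubule-associated proteins and was lower in both lines, MAST4, higher in both, MAST3, higher in SCC1, and JAKMIP3, higher in FaDu.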

How the data were processed

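The submitters' processing notes name TopHat and Cufflinks and the hg18 build. Per the labels' protocols libraries were made from total RNA with a KAPA kit. The role and version of each tool, the counter, the normalization and the strand setting are not stated there. The authors deposited 1 table per line with CPM for both libraries, a signed fold score (negative where FOSL1 siRNA was lower), and a p-value and FDR, per the file headers. Within 0.01 of a step, 100% of CPM values were whole multiples of what 1 read is worth in the library, and reads were recovered from these steps. From FDR and p-value the authors tested 13796 genes per line, and 0 columns of values went unmapped.

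Ratios have no pseudocount. No listed cytoskeletal gene had 0 reads. Simulated reads were recovered at 100%, and the share of intervals that held the simulated ratio was 96.3% in SCC1 (1903 genes) and 95.4% in FaDu (1545 genes). edgeR 4.0.16 (R 4.3.3) was run at assumed dispersions of 0.05 and 0.16, since 1 library per group gives none. At 0.05 its likelihood ratio test gave p-values within 1% of the authors' deposited ones for 1903 of 1903 and 1545 of 1545 rows. At that setting it repeats the authors' values and is no separate check, and the deposited FDRs likewise match an assumed dispersion. In simulated libraries with 200 genes changed by 4-fold, it found 95.5% of them in SCC1 and 94.5% in FaDu at 0.05, and 58.5% and 57.5% at 0.16. These shares are at an unadjusted p under 0.05. Of the unchanged genes it called 4.40% and 5.28% at a dispersion of 0.05, and 6.17% and 5.87% at 0.16. Smaller changes and adjusted p-values were not simulated, and only 6 of 44 cytoskeletal genes in SCC1 and 5 of 35 in FaDu reached 4-fold.

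The genes and lists were chosen with earlier results of these data known. The naming rule takes the genes in both tables, those with an authors' FDR under 0.05, in each line the 10 largest rises and falls on log2(CPM + 1) at 5 CPM or more, the 5 highest in level, and up to 4 per supporting list of 6, of which 1 is not reported here. It takes 32 of the 64 genes, and the others were named to complete each role, after their values were seen. Roles were assigned by hand. Exon overlaps come from GENCODE v29 (GRCh38), another build than the authors'. Tables and intervals were computed with SciPy 1.17.1, pandas 2.3.3 and numpy 2.4.6 under Python 3.11.15, and drawn with matplotlib 3.10.9.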

Additional observations from a re-analysis of the deposited data

Results flagged for a closer look

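DNAH1, an inner arm dynein heavy chain, went opposite ways in the lines, with a log2 ratio of FOSL1 siRNA over control siRNA of 2.08 in SCC1 and -1.76 in FaDu. Each value rests on 1 library per group and on 18 reads or fewer per library, and the difference was not tested.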

How the results depend on the processing

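The counts of lower and higher genes kept within 1.5 times their value at a 2-fold threshold, with pseudocounts of 1 or 0.1 CPM, at 1 CPM or more, with intervals past 1.5-fold, and without microtubule-named, pseudogene or chromatin genes. At 5 CPM or more, 3 genes were higher in SCC1 and 5 in FaDu. An authors' FDR under 0.05 left 12 lower and 2 higher in SCC1, 3 lower and 0 higher in FaDu, and 3 genes in both lines. Scaling to the median of listed rows left 9 lower in SCC1, 8 in FaDu, 5 in both lines and the medians at -0.11 and -0.19. By construction that median lies among lower rows. It turned ARPC5 to 0.0168, ARPIN to 0.11, EML2 to 0.0890, KIF3A to 0.0656, KIF4A to 0.11, MICAL1 to 0.0176, SMARCA2 to 0.0167 and TUBE1 to 0.0298 in SCC1, and EML3 to 0.0738 and SMARCE1 to 0.0544 in FaDu (log2). Chosen after seeing the data, edgeR's likelihood ratio test was read at a Benjamini-Hochberg adjusted p under 0.05. At dispersion 0.05 it repeats the authors' p-values, so its calls there restate the authors' FDR counts and add no second support. At 0.16 no cytoskeletal gene passed in either line, and far fewer of all listed rows did, so these calls hang on the assumed dispersion. Of 237 values of single genes under the pseudocounts and the scaling, 10 turned sign, those given above. Another 52 kept their sign but moved by at least the mean arm of their binomial interval on the log2 scale. All of these changes came under the scaling, where 17 values moved by less. Within a line no paired analysis was possible because each line has 1 library per group. A fit across the lines with line as a block was not run: it would cover the 678 rows in both tables, each listed for passing in both lines. Depth limits genes under 5 CPM, such as DAW1.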
